A study of Mus musculus with 12 samples.

Results

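The genes described here are the ligands and receptors of transforming growth factor beta (TGF-beta) that the panel counted: the ligand genes Tgfb1, Tgfb2 and Tgfb3 and the receptor genes Tgfbr1 and Tgfbr2. They were chosen by name, as 5 of the 770 genes measured, and all 5 were among the 635 genes whose mean count over the 12 samples reached 20 and that were tested. In these mouse hepatocellular carcinomas no member differed between any pair of groups past the threshold, an adjusted p under 0.05. With TMM scaling all 5 had their highest group mean under isotype antibody, which scaling by housekeeping genes did not keep. The receptor gene Tgfbr1 lay furthest below isotype among the members after the antibodies with Dexa at 200 mg, also with TMM scaling.

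The study's title concerns corticosteroid given before immune checkpoint blockade. The 12 samples were primary tumours of a mouse model of hepatocellular carcinoma, fixed in formalin and embedded in paraffin, from which total RNA was taken. In 3 samples the mice had received dICB, which is anti-PD-1 with anti-CTLA4 antibody. A further 3 had dICB with Dexa at 10 mg, 3 had dICB with Dexa at 200 mg, and 3 had the isotype antibody and neither blocking antibody nor Dexa. No group had Dexa alone, so a Dexa effect could be read only on top of the antibodies. Strain, age, how tumours arose, what Dexa abbreviates and how it was scheduled are not stated in the labels, nor whether a group's samples came from separate animals. P-values therefore reflect only sample-to-sample spread here, part of which may be technical. A code in the labels read ICI7 for every isotype sample and ICI10 for every dICB sample. With Dexa 10 mg, ICI7 stood on 2 samples and ICI10 on 1, and with Dexa 200 mg the split was 1 and 2. The meaning of the code is not stated, and it was treated as a possible batch.

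TGF-beta ligands are secreted in a latent form and must be released before they bind. A released ligand brings together the type II receptor, encoded by Tgfbr2, and the type I receptor, encoded by Tgfbr1, which phosphorylates the carriers SMAD2 and SMAD3. These enter the nucleus with SMAD4. In liver the pathway is known for restraining hepatocyte growth, for activating stellate cells to make matrix, and for damping T cell responses.

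The ligand and receptor genes lie apart in the mouse genome (GRCm38.p6). Tgfb1 runs from 25687002 to 25705077 on chromosome 7, Tgfb2 from 186622787 to 186709697 on chromosome 1 and Tgfb3 from 86056743 to 86079041 on chromosome 12. Tgfbr1 runs from 47353222 to 47414926 on chromosome 4 and Tgfbr2 from 116087695 to 116175363 on chromosome 9. The start regions of 4 members are shown as background, and their part in the counts was not tested. Each is 150 bases, from 100 before to 50 after a start site in the RefSeq table for that build, printed 5′ to 3′ on the gene's strand. For Tgfbr1 the table held 2 start windows, of which the first is shown. The Tgfb2 window lies inside the gene bounds given above, not at their outer end. The start sites used in these tumours are not known. Tgfb1 is chr7:25686902-25687051 (plus strand), Tgfb2 chr1:186705940-186706089 (minus), Tgfbr1 chr4:47353122-47353271 (plus) and Tgfbr2 chr9:116175314-116175463 (minus). Capitals mark TATAAA or GGGCGG, the letters of a TATA box and a GC box, on either strand.
Tgfb1: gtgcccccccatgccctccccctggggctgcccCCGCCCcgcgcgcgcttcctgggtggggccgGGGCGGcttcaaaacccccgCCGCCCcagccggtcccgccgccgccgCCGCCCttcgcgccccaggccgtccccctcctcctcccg
Tgfb2: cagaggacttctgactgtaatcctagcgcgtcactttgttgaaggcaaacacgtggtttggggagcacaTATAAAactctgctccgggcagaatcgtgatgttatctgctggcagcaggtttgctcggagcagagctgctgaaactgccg
Tgfbr1: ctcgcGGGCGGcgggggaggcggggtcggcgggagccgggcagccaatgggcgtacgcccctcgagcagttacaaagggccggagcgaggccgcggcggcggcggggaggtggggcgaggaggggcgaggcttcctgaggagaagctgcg
Tgfbr2: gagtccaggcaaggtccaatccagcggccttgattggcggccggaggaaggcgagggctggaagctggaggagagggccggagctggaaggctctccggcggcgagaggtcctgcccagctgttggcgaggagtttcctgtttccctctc

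Tgfb1 was the richest in G and C of the 4 windows, at 83.3%, and held GGGCGG at 4 places that did not overlap. Tgfbr1 was 77.3% G and C and held GGGCGG once, Tgfbr2 was 66% and held neither motif, and Tgfb2 was 52% and held TATAAA once. TATAAA occurred in 6.94% and GGGCGG in 28.8% of the 32851 windows of that length in the table, whose median G and C content was 54.7%. Neither CAGAC, the letters of a SMAD-binding element, nor AGAACA, those of a glucocorticoid receptor half-site, was found in the 4 windows, against 29.2% and 9.62% of all windows. A match of letters shows no binding, and its absence says only that the letters are not in the window. Tgfb3 is named only.

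Total counts over genes were 252994 to 428944 per sample, and a sample's background limit, the mean of its 8 negative controls plus 2 SD, was 18.1 to 38.1 counts. Replicate 1 of dICB stood apart in genes of the neutrophil list, with 21552 normalised counts summed over 8 markers, 5 of them above background. Mpo, Camp and Ltf were above background in 0 of 12 samples. S100a8 reached the highest raw count of that list, 17752, so the sum weighs that gene most and is no measure of neutrophil number. Replicate 2 of Dexa 10 mg stood apart in other genes. Of 9 hepatocyte and liver tumour markers, Mbl2, Masp2, C8a, C8b, C8g and C9 were above background in 0 of 12 samples, while Epcam was above it in 12, Masp1 in 9 and Cdh1 in 8. Levels below are normalised counts, that is counts scaled by TMM to a library of 357620 counts. Differences are log2 fold changes ± SE from edgeR's quasi-likelihood test, with p-values adjusted by Benjamini-Hochberg over the 635 genes.

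Tgfb1, the ligand made by most immune and stromal cells, was measured well above background in every sample, with raw counts of 782 to 1400. It stood at 989, 1017 and 1395 in the dICB samples. The Dexa 10 mg samples held 1016, 1235 and 1219, the Dexa 200 mg samples 999, 1102 and 941, and the isotype samples 1268, 1314 and 1225. Every Dexa 200 mg sample lay below every isotype sample, while dICB replicate 3 was the highest of all 12. Group means were 1134 ± 227 in dICB, 1157 ± 122 with Dexa 10 mg, 1014 ± 81.5 with Dexa 200 mg and 1269 ± 44.5 in isotype (SD, n = 3 each). In order of mean these run isotype, Dexa 10 mg, dICB and Dexa 200 mg, and no neighbours in that order differed beyond their spread.

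Tgfb2, a ligand best known from epithelia and development, was close to background. Raw counts were 17 to 42, and 6 of 12 samples were above their limit: all 3 of dICB and 1 each of Dexa 10 mg, Dexa 200 mg and isotype. It stood at 36.5, 27.7 and 34.3 in dICB, at 30.3, 24.2 and 24.4 with Dexa 10 mg, at 29.0, 24.0 and 20.7 with Dexa 200 mg, and at 39.4, 29.4 and 33.6 in isotype. The Dexa 200 mg values all lay below those of isotype, by a margin smaller than the spread within either group. Counting error alone gives a coefficient of variation of 17.5% to 21.7% at these counts, and the spread within groups was 13.1% to 17.1%. Background was left in these counts. With it subtracted, in limma, the log2 fold changes of Tgfb2 against isotype were 0.0099 in dICB, -0.98 with Dexa 10 mg and -1.10 with Dexa 200 mg, and none passed.

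Tgfb3, a ligand made largely by mesenchymal cells, was low and the most variable member. It stood at 25.8, 58.6 and 58.1 in dICB, at 69.7, 51.2 and 67.1 with Dexa 10 mg, at 46.0, 100.04 and 60.8 with Dexa 200 mg, and at 106, 52.4 and 70.6 in isotype. The groups overlapped throughout, and dICB replicate 1, the lowest, was the only sample below its background limit. The coefficient of variation over all 12 samples was 34.4%, against 13.2% from counting. Summed fibroblast and stellate cell markers were 4870 to 7248 in dICB, 3822 to 5832 with Dexa 10 mg, 4566 to 13253 with Dexa 200 mg and 3553 to 11642 in isotype, all 6 markers being above background in each sample. In a bulk sample, fewer cells of a type and less RNA per cell cannot be told apart.

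Tgfbr1, the type I receptor that phosphorylates the SMAD carriers, stood at 361, 358 and 475 in dICB. The Dexa 10 mg samples held 522, 414 and 585, the Dexa 200 mg samples 448, 421 and 321, and the isotype samples 564, 662 and 490. All dICB and all Dexa 200 mg samples were below all isotype samples, and the Dexa 10 mg samples overlapped with isotype. Means were 398 ± 66.6 in dICB, 507 ± 86.4 with Dexa 10 mg, 397 ± 66.9 with Dexa 200 mg and 572 ± 86.2 in isotype (SD, n = 3 each). The order ran isotype, Dexa 10 mg, dICB and Dexa 200 mg, and neighbours in that order overlapped.

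Tgfbr2, the type II receptor that binds the ligand, stood at 319, 339 and 471 in dICB. It was 418, 378 and 428 with Dexa 10 mg, 365, 344 and 382 with Dexa 200 mg, and 464, 488 and 464 in isotype. Both Dexa groups lay wholly below isotype, and dICB did not, because its replicate 3 exceeded 2 isotype samples. Means were 376 ± 82.4 in dICB, 408 ± 26.3 with Dexa 10 mg, 364 ± 19.2 with Dexa 200 mg and 472 ± 13.8 in isotype, in the same order of groups as Tgfbr1. Neighbours in that order overlapped except Dexa 10 mg and isotype, whose difference did not pass the test.

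**Figure D1:**
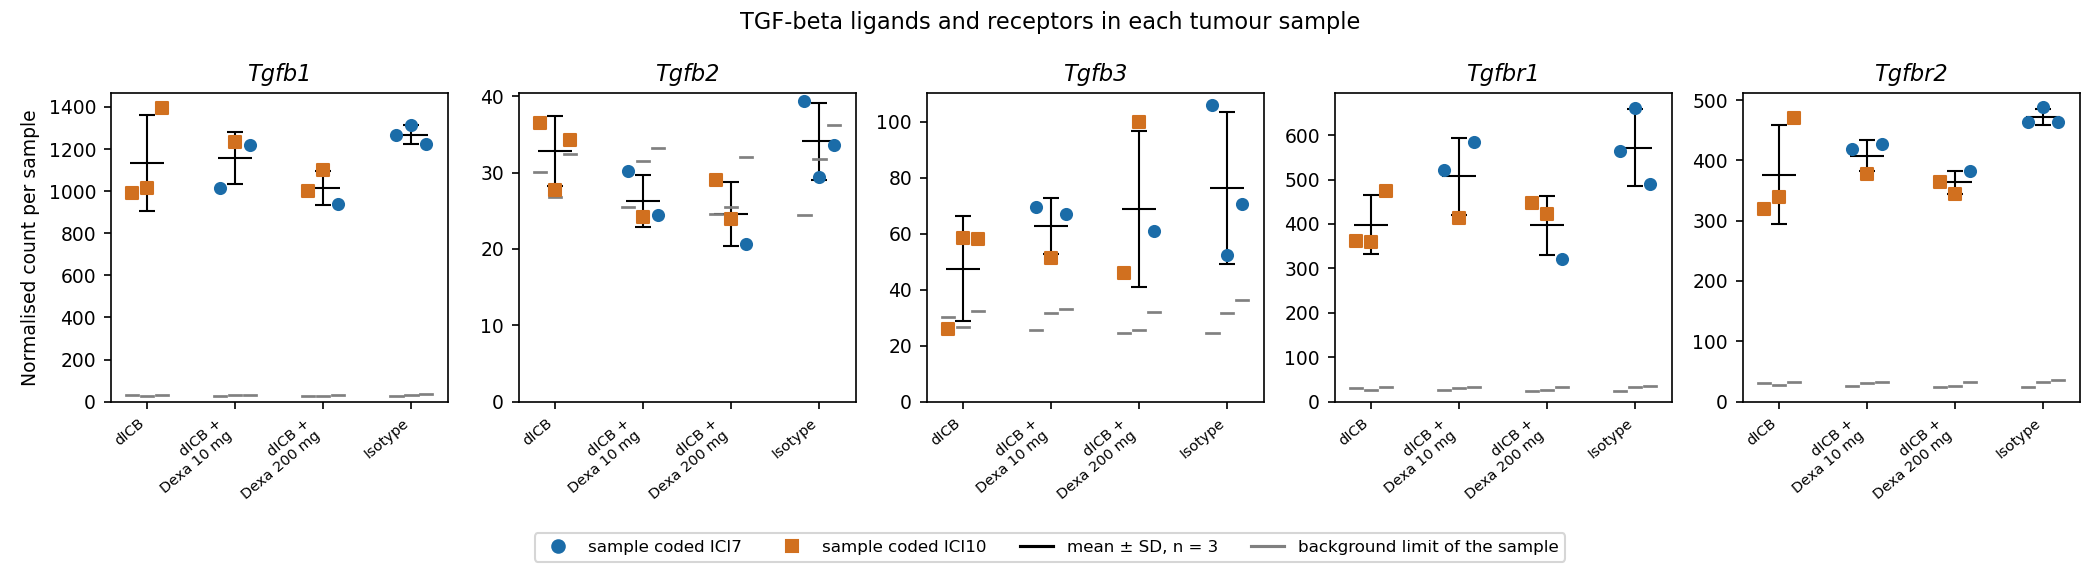
Normalised counts of the 3 ligand and 2 receptor genes (vertical axes, each from 0) in each of 12 tumour samples, by group, with circles for samples coded ICI7, squares for ICI10, bars for the mean ± SD of 3 samples and grey marks for the background limit. Tgfbr1 lies at 321 to 448 with Dexa 200 mg and at 490 to 662 in isotype, and Tgfb2 lies near its background limit throughout.

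Setting dICB beside isotype addresses what accompanied the antibodies. No member passed: the adjusted p was 0.181 for Tgfbr1 and at least 0.308 for the other members, and 0% of the 635 genes passed in edgeR. At an unadjusted p under 0.05, 1 member and 20% of genes did. Tgfbr1 was at -0.52 ± 0.21 (95% interval -0.98 to -0.07, unadjusted p = 0.0273 by edgeR) and Tgfbr2 at -0.33 ± 0.18. Among ligands Tgfb3 was at -0.70 ± 0.37, Tgfb1 at -0.16 ± 0.17 and Tgfb2 at -0.06 ± 0.21. Without dICB replicate 1, the sample high in genes of the neutrophil list, Tgfb3 was at -0.41 and Tgfbr1 at -0.47. Tgfbr1 was the only member whose groups did not overlap, and 12.8% of all genes were lower without overlap. Because the code split exactly along these groups, an effect of the antibodies and one of the code cannot be told apart.

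The comparison of Dexa 200 mg with isotype combines antibodies and the higher dose. Here 84 genes passed, 13.2% of those tested, and no member was among them. At an unadjusted p under 0.05 there were 1 member and 32.3% of genes. Tgfbr1 was at -0.53 ± 0.21 (adjusted p = 0.110 by edgeR, unadjusted p = 0.0267), Tgfb2 at -0.47 ± 0.22, Tgfbr2 at -0.38 ± 0.18, Tgfb1 at -0.32 ± 0.17 and Tgfb3 at -0.17 ± 0.37. Tgfbr1 passed at -0.56, with an edgeR adjusted p of 0.0484, when dICB replicate 1 and Dexa 10 mg replicate 2 were both left out, a setting chosen after the data were seen. The adjusted p of Tgfbr1 was 0.0523 without Dexa 10 mg replicate 2 alone and 0.0935 without dICB replicate 1 alone. All members but Tgfb3 were lower without overlap, where 23.6% of all genes were. Under the code ICI7 the lone Dexa 200 mg sample held 321 normalised counts of Tgfbr1 against a mean of 572 in the 3 isotype samples.

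At 10 mg of Dexa every member but Tgfb3 lay nearer to isotype than at 200 mg, with TMM scaling, and no member passed in the direct comparison of the doses. Against isotype, Tgfbr2 was at -0.21 ± 0.18, Tgfbr1 at -0.17 ± 0.21, Tgfb1 at -0.13 ± 0.17, Tgfb2 at -0.38 ± 0.21 and Tgfb3 at -0.29 ± 0.37, all with an edgeR adjusted p of at least 0.662. Of the members only Tgfbr2 was lower without overlap, where 5.04% of genes were, and 0% of genes passed. At an unadjusted p under 0.05, 0 members and 8.35% of genes did. Dexa 200 mg against Dexa 10 mg gave -0.35 ± 0.21 for Tgfbr1 (95% interval -0.81 to 0.10), -0.19 ± 0.17 for Tgfb1 and -0.17 ± 0.18 for Tgfbr2, with 0 members and 0% of genes past the threshold, and 0 members and 12% of genes at an unadjusted p under 0.05. The Tgfbr1 difference between doses was -0.78 under the code ICI7 (1 sample at 200 mg, 2 at 10 mg) and 0.07 under ICI10 (2 and 1).

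The comparisons with dICB ask what Dexa added to the antibodies, and no member passed in them either, as 0% of genes did. At an unadjusted p under 0.05 there were 0 members in each, where 9.45% of genes were at 10 mg, 8.5% at 200 mg and 8.35% with both doses pooled. With Dexa 10 mg, Tgfb3 was at 0.41 ± 0.37 and Tgfbr1 at 0.35 ± 0.21 relative to dICB. Tgfb2 was at -0.31 ± 0.21, Tgfbr2 at 0.12 ± 0.18 and Tgfb1 at 0.03 ± 0.17. With Dexa 200 mg, Tgfb3 was at 0.53 ± 0.38 and Tgfb2 at -0.40 ± 0.22, Tgfb1 at -0.16 ± 0.17 and Tgfbr2 at -0.05 ± 0.18. The interval for Tgfbr1 at 200 mg, -0.46 to 0.45, runs from 0.728-fold to 1.37-fold, so a change within it was not detectable with 3 samples a group. With both doses pooled (6 samples against 3 of dICB) the values were 0.47 for Tgfb3, -0.36 for Tgfb2, 0.17 for Tgfbr1, -0.07 for Tgfb1 and 0.04 for Tgfbr2. Without dICB replicate 1 the Tgfb3 values were 0.13 at 10 mg and 0.20 at 200 mg. Among samples coded ICI10, Tgfb3 was at 0.11 with the 1 sample at 10 mg and 0.62 with the 2 at 200 mg, and Tgfbr1 at 0.06 and 0.13.

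Taking the 9 samples that had the antibodies against the 3 of isotype gave values below 0 for all members with TMM scaling and no call among them, where 7.56% of genes passed. At an unadjusted p under 0.05 there were 1 member and 24.9% of genes, and 0 members were lower without overlap, where 1.57% of genes were. Tgfbr1 was at -0.41 ± 0.17 (95% interval -0.77 to -0.05, edgeR adjusted p = 0.158), Tgfb3 at -0.38 ± 0.29, Tgfbr2 at -0.30 ± 0.14, Tgfb2 at -0.30 ± 0.17 and Tgfb1 at -0.21 ± 0.14. Without isotype replicate 1 Tgfb3 was at -0.09. Among the samples coded ICI7, 3 in each arm, the values were -0.26 for Tgfbr1, -0.21 for Tgfb3, -0.21 for Tgfbr2, -0.44 for Tgfb2 and -0.26 for Tgfb1. In the test for any difference among the 4 groups Tgfbr1 had the smallest adjusted p of the members, 0.255 by edgeR, and 0.787% of genes passed, with 0 members and 21.7% of genes at an unadjusted p under 0.05. With TMM scaling members were below 0 in all 5 cases against isotype for each treated group, where 48.2% of genes were with dICB, 53.2% with Dexa 10 mg, 48.3% with Dexa 200 mg and 49.3% for the 9 samples pooled. These comparisons share the 3 isotype samples and are not independent of each other.

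**Figure D2:**
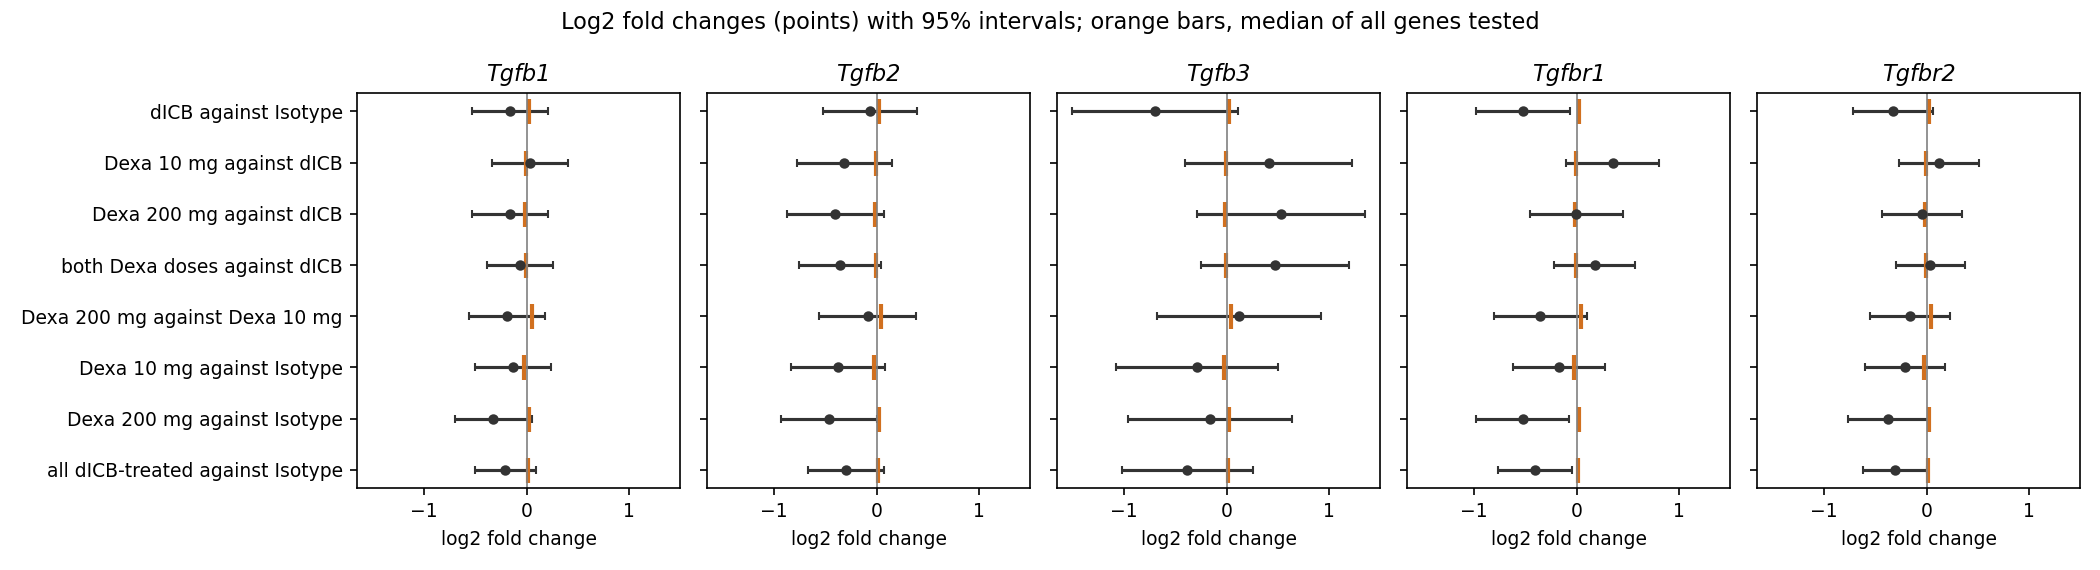
Log2 fold changes of the 5 genes (horizontal axes) in each comparison (vertical axes), with 95% intervals as bars and the median of the 635 genes tested in orange. With TMM scaling, points against isotype lie left of 0 for every member, with intervals that leave out 0 only for Tgfbr1, and no point passed the adjusted threshold.

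How the libraries were scaled set the sign of several of these values. The 20 housekeeping genes had a median of -0.49 in dICB against isotype (19 of 20 lower), -0.32 with Dexa 10 mg (17 of 20) and -0.56 with Dexa 200 mg (19 of 20). When libraries were scaled by those genes, the median of all genes moved to 0.46, 0.23 and 0.55 in these 3 comparisons. Tgfbr1 then stood at -0.09, 0.07 and -0.0068, and Tgfbr2 at 0.10, 0.05 and 0.16. Scaling moves all genes of a sample alike, so the distance of a gene from the median of all genes is nearly fixed whatever the scaling, which is no sign of stability. With TMM that distance for Tgfbr1 against isotype was -0.55 in dICB, -0.14 with Dexa 10 mg and -0.55 with Dexa 200 mg. Mean Tgfbr1 levels after housekeeping scaling were 429 in dICB, 478 with Dexa 10 mg, 453 with Dexa 200 mg and 456 in isotype.

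**Figure D3:**
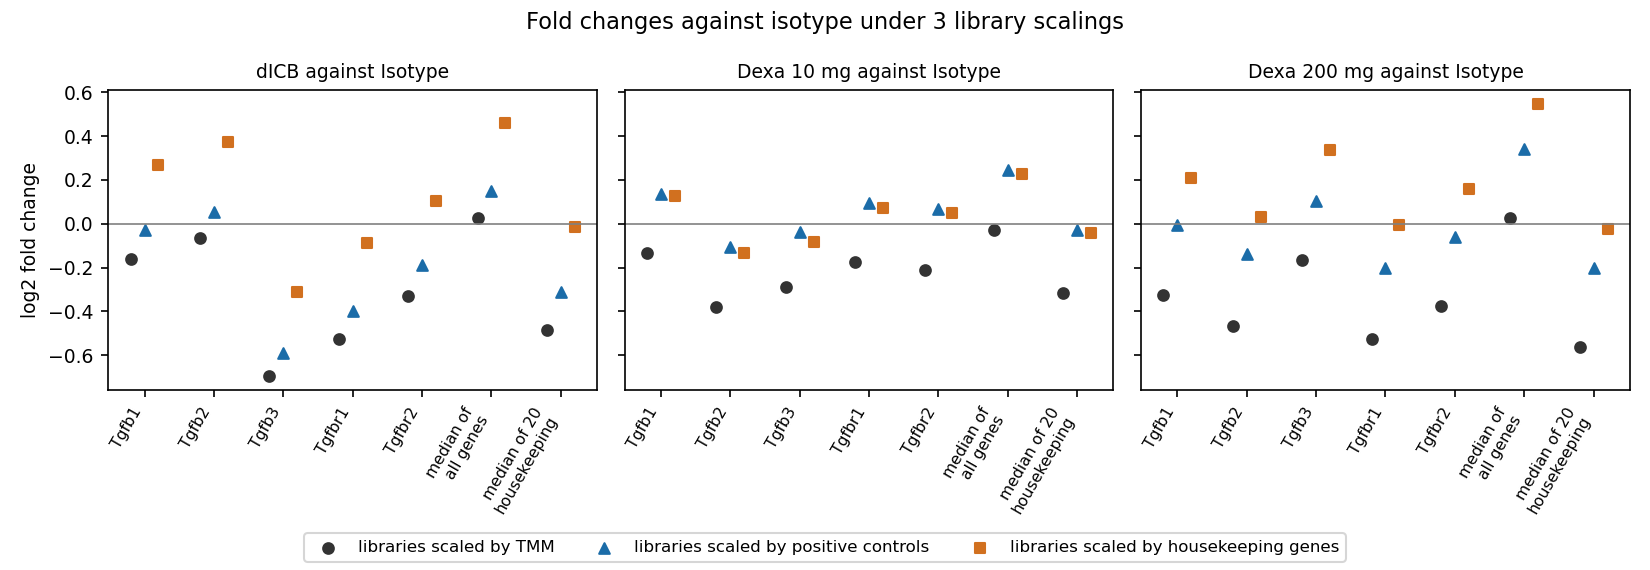
Log2 fold changes against isotype (vertical axes) of the 5 genes, the median of all genes and the median of the housekeeping genes, with libraries scaled by TMM, by 20 housekeeping genes or by positive controls. A change of scaling moves the members and the median of all genes together by construction, and with housekeeping genes the median of all genes lies at 0.46, 0.23 and 0.55.

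A ratio of one probe to another within a sample does not depend on the scaling, although it is no ratio of transcripts, since probes differ in efficiency. The Tgfb1 to Tgfbr1 count ratio was 2.84 ± 0.10 in dICB (2.74 to 2.94), 2.34 ± 0.56 with Dexa 10 mg, 2.59 ± 0.35 with Dexa 200 mg and 2.24 ± 0.26 in isotype (1.99 to 2.50), as SD with n = 3 each. The Tgfb1 to Tgfbr2 ratio was 3.02 ± 0.07 in dICB (2.97 to 3.10) and 2.69 ± 0.05 in isotype (2.64 to 2.73). It was 2.85 ± 0.42 with Dexa 10 mg (2.43 to 3.27) and 2.80 ± 0.38 with Dexa 200 mg (2.46 to 3.20), which overlapped with both. Both ratios were higher in every dICB sample than in every isotype sample, which is given as a description with no test. The share of other gene pairs that separate these groups was not computed, and the code splits along the same groups. The Tgfbr1 to Tgfbr2 ratio overlapped, at 1.07 ± 0.06 in dICB and 1.21 ± 0.15 in isotype.

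Summed hepatocyte and liver tumour markers, scaled by TMM, were lower in each treated group than in isotype. They were 235 to 335 in dICB, 312 to 346 with Dexa 10 mg, 245 to 261 with Dexa 200 mg and 359 to 445 in isotype. Of the 9 markers 2 to 3 were above background, and Epcam was the largest, at a mean of 166 over the 12 samples. The sum is therefore no measure of hepatocyte content, and it was not recomputed under other scalings. The part of these markers in the receptor values was not tested. Summed endothelial markers were 955 to 1044 in dICB, 747 to 974 with Dexa 10 mg, 762 to 1042 with Dexa 200 mg and 957 to 1431 in isotype, with 6 to 8 of 8 above background. Summed T cell markers were 551 to 1170 in dICB, 637 to 858 with Dexa 10 mg, 742 to 1271 with Dexa 200 mg and 725 to 965 in isotype, with 6 to 9 of 9 above background. Summed macrophage markers were 4594 to 6802 in dICB, 5014 to 6351 with Dexa 10 mg, 5957 to 6749 with Dexa 200 mg and 3704 to 5931 in isotype, with 7 to 9 of 9 above background. Every Dexa 200 mg sample was above every isotype sample in that sum, but narrowly, the nearest values being 5957 and 5931. C1qb and C1qa were its largest markers, at means of 1932 and 1766 over the 12 samples. Neither passed in the test for any difference among the 4 groups (edgeR adjusted p of 0.795 and 0.531). The sum is no measure of macrophage number, and it was not recomputed under other scalings. Its part in the members' values was not tested.

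Over the 12 samples Tgfbr1 and Tgfbr2 went together with a Pearson r of 0.79 (Spearman 0.75) on log2 normalised counts, and Tgfb1 with Tgfbr2 at 0.76. After housekeeping scaling these were 0.35 and 0.74. Tgfb2 and Tgfb3 had an r of -0.08. Of 630 other genes, those most like Tgfb1 were Cd81 (r = 0.94, Spearman 0.90), a tetraspanin, Edc3 (0.90) and Itch (0.89), a ubiquitin ligase. Those most like Tgfbr2 were the MHC class I gene H2-Q1 (0.95), the complement protease Masp1 (0.92) and the Toll-like receptor adaptor Tirap (0.88). Among those most like Tgfbr1 were Hmgb1 (0.88), a chromatin protein, and Abcf1 (0.87). Edc3 and Abcf1 belong to the 20 housekeeping genes, and H2-Q1 has close relatives that its probe may also catch.

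Tgfb2 was most like the protease gene Mmp9 (0.80), the platelet chemokine Ppbp (0.75) and Reps1 (0.73), although counting error makes up much of its spread. Within groups, with group means removed, these were 0.44, 0.60 and 0.45, while the genes named for the other members had 0.68 to 0.94. Tgfb3 was most like the T cell genes Cd8b1 (0.74), Cd27 (0.73) and Lck (0.71). Without dICB replicate 1 and isotype replicate 1, the extremes of Tgfb3, these were 0.51, 0.73 and 0.20. Several genes named as most alike were low themselves. Cd27 had a mean of 32.5 normalised counts, Ppbp 39.4, Masp1 39.9 and Cd8b1 43.6, with background left in. All genes named as most alike are chosen as the highest of 630 in samples that share library scaling, and no test is attached to them.

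Other genes of the pathway were taken from lists of 21 genes of ligand latency and activation, 10 co-receptors and related receptors, 13 signal carriers and brakes, 26 genes known to be induced by TGF-beta and 10 other ligands of the superfamily. The panel held 5, 2, 5, 13 and 0 of them, and all were tested except Foxp3, which was above background in 0 of 12 samples. In dICB against isotype, and in every comparison with dICB or between doses, 0 of the 24 passed in either direction, as did 0% of all genes. In dICB against isotype the activation list had 3 higher and 2 lower with a median of 0.09, the carriers 1 higher and 4 lower with -0.30, and the induced genes 5 higher and 7 lower with -0.13, where all genes had a median of 0.03. These balances turned with the scaling. With housekeeping scaling the activation list had 5 higher and 0 lower, the carriers 4 higher and 1 lower, and the induced genes 10 higher and 2 lower, where all genes had a median of 0.46. Vegfa, a vessel growth factor named here after its value was seen, then rose past the threshold at 0.89 ± 0.23 (edgeR adjusted p = 0.0444), where 7.09% of all genes passed. With TMM the smallest p-values of the lists belonged to Itgb1, an integrin subunit, at -0.43 ± 0.15, the filament gene Vim at 0.48 ± 0.19 and the cytokine gene Il11 at -0.59 ± 0.29, none past the threshold.

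With Dexa 200 mg against isotype and TMM scaling, 4 of the 24 pathway genes fell past the threshold and 0 rose, where 7.09% of all genes fell. Itgb1, the integrin beta subunit that pairs with alpha subunits able to bind latent ligand, stood at 2595, 2385 and 2240 with Dexa 200 mg and at 3713, 3848 and 3575 in isotype. Its log2 fold change was -0.62 ± 0.15 (edgeR adjusted p = 0.0205). Mmp9, a protease that can release latent ligand, stood at 61.4, 31.0 and 44.7 with Dexa 200 mg and at 100.4, 130.1 and 119.9 in isotype. It was at -1.33 ± 0.30 (edgeR adjusted p = 0.0171), with no overlap, where 23.6% of all genes were lower without overlap. Among induced genes, the cytokine Il11 stood at 11.1, 8.45 and 10.3 with Dexa 200 mg, all below background, and at 30.0, 36.7 and 29.1 in isotype, of which 2 were above it. Its value of -1.65 ± 0.32 (edgeR adjusted p = 0.0125) therefore compares counts at or near background. The cytokine Lif, named although outside the rule for named genes after its value was seen, was at -0.88 ± 0.25 (edgeR adjusted p = 0.0383).

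These calls depended on single libraries and on scaling. Il11 had an edgeR adjusted p of 0.0503 without isotype replicate 3, and of 0.0564 and 0.0516 when replicates 2 and 3 of Dexa 200 mg were left out in turn. Mmp9 and Itgb1 had adjusted p-values of 0.0661 to 0.0887 in edgeR when isotype replicate 2 or 3, or Dexa 200 mg replicate 2 or 3, was left out. Lif had 0.0555 to 0.151 when any isotype or Dexa 200 mg sample, dICB replicate 3 or Dexa 10 mg replicate 1 was left out. With housekeeping scaling Il11 passed at -1.13, while Mmp9 was at -0.81, Lif at -0.37 and Itgb1 at -0.10, none of which passed. With that scaling 3 genes not called with TMM rose past the threshold, and they are named here after their values were seen: Plau, a plasminogen activator, at 1.57 ± 0.47, Vim at 1.00 ± 0.26 and Eng, a co-receptor, at 0.97 ± 0.31 (edgeR adjusted p of 0.0329, 0.0202 and 0.0405), where 26.1% of all genes passed. With positive control scaling Il11 passed at -1.33, while Mmp9 at -0.98, Lif at -0.55 and Itgb1 at -0.30 did not, where 8.98% of all genes passed. With the sample code as a covariate Mmp9 and Lif had an edgeR adjusted p of 0.0710 each. With background subtracted, Il11 and Lif had a limma adjusted p of 0.0572 each, and without the count filter Lif had 0.0541 in edgeR.

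The carriers did not pass in that comparison, though all 5 were below 0 with TMM scaling, where 48.3% of all genes were. Their median was -0.74, where that of all genes was 0.03. With housekeeping scaling 4 of the 5 were below 0, all but Smad4, with a median of -0.20 where all genes had 0.55. Map3k7, which encodes the kinase TAK1, was at -0.85 ± 0.31 and its partner Tab1 at -0.74 ± 0.24 (edgeR adjusted p of 0.0889 and 0.0627). Smad2 was at -0.81 ± 0.37, Smad3 at -0.74 ± 0.31 and Smad4 at -0.37 ± 0.25. Smad3 stood at 323, 302 and 296 with Dexa 200 mg and at 442, 546 and 552 in isotype, with no overlap. Smad2, Map3k7 and Tab1 did not overlap either, and 23.6% of all genes were lower without overlap. Among the matrix genes of the induced list, named although outside the rule after their values were seen, Fn1, fibronectin, was at -0.78 ± 0.26 and Col3a1, a fibrillar collagen, at 0.72 ± 0.59, and neither passed. The co-receptor Eng was at 0.44 ± 0.25 and Nrp1 at -0.29 ± 0.38.

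In the pooled comparison of 9 samples with isotype, Il11 alone of the 24 passed, at -0.99 ± 0.23 (edgeR adjusted p = 0.0332), where 3.62% of all genes fell. It did not pass with housekeeping scaling, at -0.57, where 13.1% of all genes passed and Vim rose at 0.84 ± 0.22, nor with positive control scaling, at -0.75, where 3.94% did. With the sample code as a covariate its edgeR adjusted p was 0.193, and with background subtracted its limma adjusted p was 0.0655. It fell under the count filter, and so was not tested, without isotype replicate 1 or 2 or without dICB replicate 1. It also did not pass without isotype replicate 3 (adjusted p = 0.210), Dexa 10 mg replicate 1 (0.0595), or, in the Dexa 200 mg group, replicate 2 (0.0632) or 3 (0.0612), all by edgeR. Mmp9 was at -0.79 ± 0.23 and Itgb1 at -0.40 ± 0.12, just outside the threshold with edgeR adjusted p-values of 0.0540 and 0.0565. With Dexa 10 mg against isotype 0 of the 24 passed, and Mmp9 was at -0.99 ± 0.29, Smad2 at -0.74 ± 0.37 and Il11 at -0.72 ± 0.28. Smad2 was at -0.40 without Dexa 10 mg replicate 2, a sample that stood apart. Il11 was below background in every Dexa 10 mg sample. Relative to dICB, Mmp9 was at -0.96 ± 0.29 with Dexa 10 mg and -1.30 ± 0.30 with Dexa 200 mg (edgeR adjusted p of 0.402 and 0.267), and at -1.13 ± 0.25 with both doses pooled. Without dICB replicate 1, whose neutrophil markers summed to 21552 against 410 to 760 with Dexa 10 mg and 446 to 714 with Dexa 200 mg, Mmp9 was at -0.62 and -0.99 at the 2 doses. The part of neutrophil genes in Mmp9 was not tested. Without dICB replicate 2 Mmp9 passed with Dexa 200 mg (edgeR adjusted p = 0.0400) and with both doses pooled (0.0107), as it did in DESeq2 (0.0342 and 0.0235). Relative to dICB, Vegfa was at -0.85 ± 0.23 and Il11 at -1.06 ± 0.33 with Dexa 200 mg (edgeR adjusted p of 0.365 each). With both doses they were at -0.56 ± 0.20 and -0.59 ± 0.27 (0.310 and 0.567). Leaving out 1 replicate at a time, each passed in 1 fit at 200 mg, with an edgeR adjusted p of 0.0400. Each also passed in 1 fit with both doses, at 0.0309 for Vegfa and 0.0315 for Il11. Both lay furthest below dICB without its replicate 2. With Dexa 10 mg, Fn1 was at 0.36 ± 0.26 and Itgb1 at 0.26 ± 0.15 relative to dICB. Between doses, 200 mg against 10 mg, Fn1 was at -0.81 ± 0.26, Itgb1 at -0.46 ± 0.15 and Il11 at -0.93 ± 0.33, none past the threshold.

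**Figure D4:**
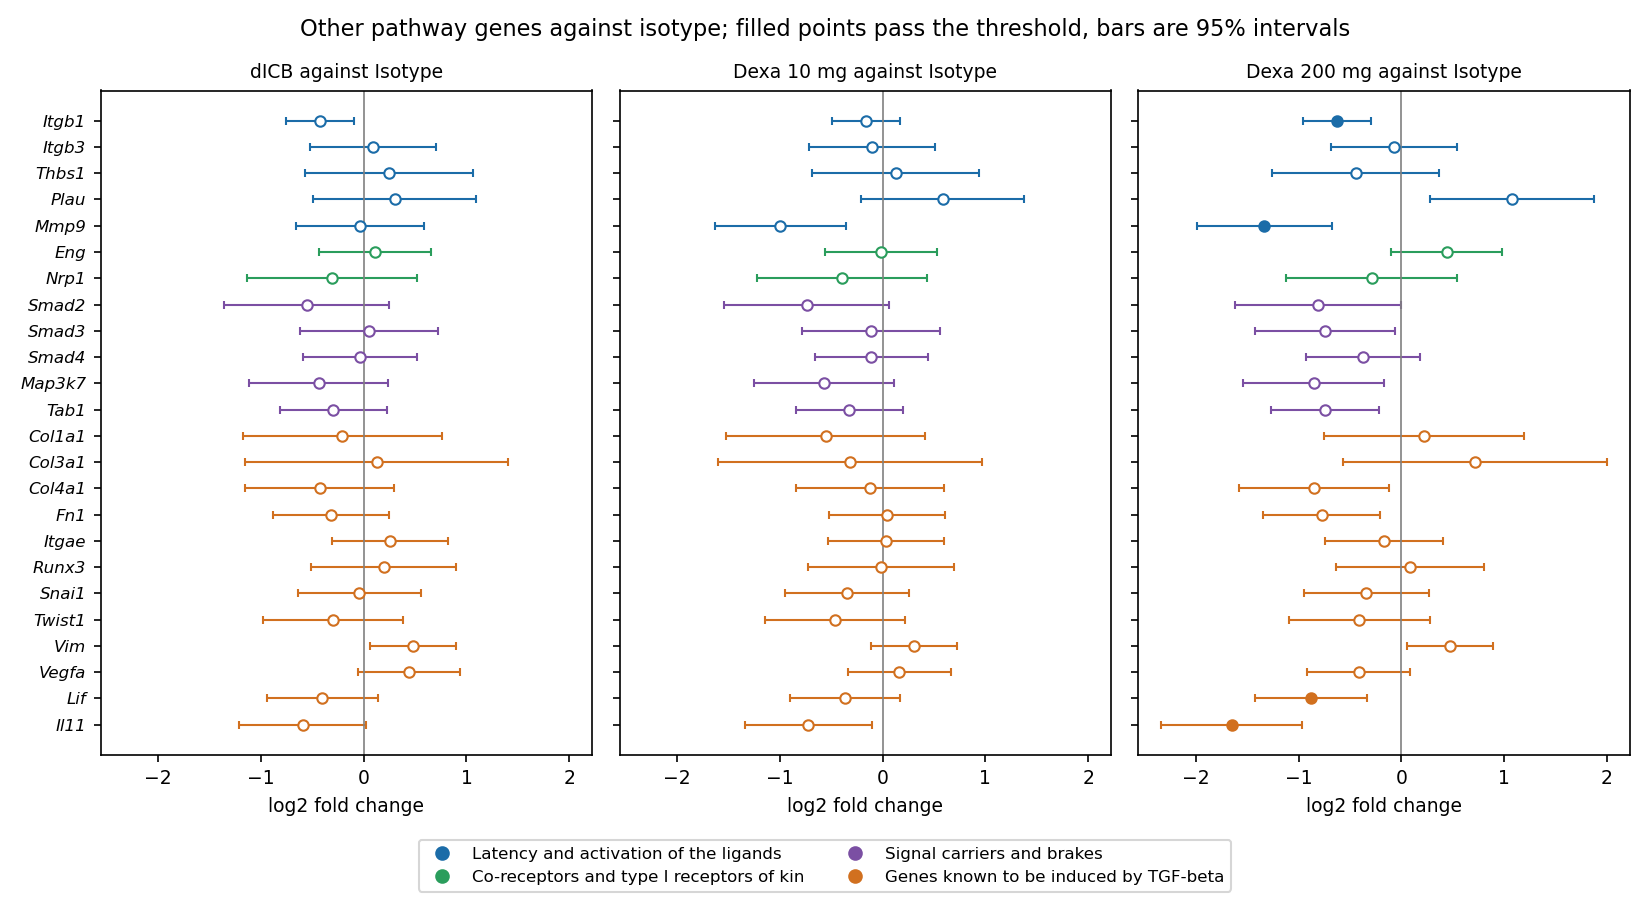
Log2 fold changes against isotype (horizontal axes) with 95% intervals for the other pathway genes (vertical axis), coloured by list. Points are filled where the edgeR adjusted p is under 0.05. With Dexa 200 mg and TMM scaling the carriers all lie left of 0, as do 48.3% of all genes tested. The filled points there are Itgb1, Mmp9, Lif and Il11.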

How the data were processed

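RNA from 12 tumour samples was measured on a panel of 784 probes: 770 genes, 6 positive and 8 negative controls. The deposited values were raw counts per probe, with no background subtracted as far as the values show. The RNA came from fixed, paraffin-embedded tumour tissue, per the labels' protocols. Instrument, panel name and counting software are not given in the sources, and every column matched 1 sample.

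The statistics used edgeR 4.0.16 (R 4.3.3) on genes averaging 20 counts or more, with TMM scaling and 1 two-sided quasi-likelihood fit of 4 group means over 12 samples (8 residual degrees of freedom, 12.4 after moderation, common biological coefficient of variation 28.3%). P-values were adjusted by Benjamini-Hochberg over 635 genes. SE is the log2 fold change over the root of F, which is approximate. Replicates differed by more than counting error (chi-square per degree of freedom at least 4.05). The fitting was tested on simulated data. Alternatives were DESeq2 1.42.0, limma 3.58.1 on background-subtracted values, other scalings, filters and samples, the replicate block and the sample code. The 20 housekeeping genes come from general knowledge of such panels.

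Besides the 5 members, up to 3 pathway genes of smallest p were named per comparison, 3 genes of highest r per member, and further pathway genes to describe their list. Of the genes of highest r, 1 is not reported here. The members and lists were chosen with earlier results of these data known. Pairwise ratios and r are descriptions.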

Additional observations from a re-analysis of the deposited data

How the results depend on the processing

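No member passed the threshold in the reported fit, and of 1009 values of the members recomputed under alternatives 942 were counted as unchanged. For log2 fold changes from a test this meant the same sign and side of the threshold, whatever the size. With housekeeping scaling, Tgfbr1 in Dexa 200 mg against isotype went from -0.53 to -0.0068 and counted as unchanged. For differences within a code only the sign was compared, and for the test of any difference only the side of the threshold. One came to pass, Tgfbr1 in Dexa 200 mg against isotype without both samples that stood apart (-0.56, edgeR adjusted p = 0.0484). Its adjusted p was 0.0484 to 0.977 over its alternatives. The other 66 changed sign, none past the threshold. Under other scalings the members moved together with the median of all genes by construction. What lay behind the remaining changes of sign was not tested. With housekeeping gene scaling the sign turned in dICB against isotype 0.27 for Tgfb1, 0.37 for Tgfb2 and 0.10 for Tgfbr2, in Dexa 10 mg against dICB -0.14 for Tgfb1 and -0.058 for Tgfbr2, in Dexa 200 mg against dICB 0.081 for Tgfbr1 and 0.055 for Tgfbr2, in both Dexa doses against dICB -0.0015 for Tgfbr2, in Dexa 200 mg against Dexa 10 mg 0.080 for Tgfb1, 0.16 for Tgfb2 and 0.11 for Tgfbr2, in Dexa 10 mg against isotype 0.13 for Tgfb1, 0.069 for Tgfbr1 and 0.047 for Tgfbr2, in Dexa 200 mg against isotype 0.21 for Tgfb1, 0.031 for Tgfb2, 0.34 for Tgfb3 and 0.16 for Tgfbr2, in all 9 treated samples against isotype 0.20 for Tgfb1, 0.089 for Tgfb2 and 0.10 for Tgfbr2. Without the count filter it turned in Dexa 200 mg against dICB 0.017 for Tgfbr1. With a mean of at least 50 counts it turned in Dexa 10 mg against dICB -0.0076 for Tgfb1. With the sample code as a covariate it turned in both Dexa doses against dICB 0.0083 for Tgfb1 and -0.033 for Tgfbr2. With background subtracted and limma it turned in dICB against isotype 0.0099 for Tgfb2 and in Dexa 200 mg against dICB 0.0011 for Tgfbr1. Within ICI10 it turned in Dexa 200 mg against dICB 0.13 for Tgfbr1, in both Dexa doses against dICB -0.055 for Tgfbr2, in Dexa 200 mg against Dexa 10 mg 0.13 for Tgfb2 and 0.069 for Tgfbr1. Within ICI7 it turned in Dexa 200 mg against Dexa 10 mg -0.17 for Tgfb3. With positive control scaling, added after the data were seen, it turned in dICB against isotype 0.055 for Tgfb2, in Dexa 200 mg against dICB 0.020 for Tgfb1, 0.20 for Tgfbr1 and 0.13 for Tgfbr2, in both Dexa doses against dICB 0.091 for Tgfb1, in Dexa 10 mg against isotype 0.14 for Tgfb1, 0.10 for Tgfbr1 and 0.069 for Tgfbr2, in Dexa 200 mg against isotype 0.10 for Tgfb3, in all 9 treated samples against isotype 0.034 for Tgfb1. Without both samples that stood apart, likewise added, it turned in Dexa 10 mg against dICB -0.11 for Tgfb1, in both Dexa doses against dICB -0.052 for Tgfbr2, in Dexa 200 mg against Dexa 10 mg -0.032 for Tgfb3. Leaving out 1 replicate at a time turned the sign of values close to 0, with ranges in Dexa 10 mg against dICB of -0.031 to 0.19 for Tgfb1, in Dexa 200 mg against dICB of -0.27 to 0.011 for Tgfb1, -0.11 to 0.14 for Tgfbr1, -0.17 to 0.14 for Tgfbr2, in both Dexa doses against dICB of -0.15 to 0.10 for Tgfb1, -0.065 to 0.22 for Tgfbr2, in Dexa 200 mg against Dexa 10 mg of -0.29 to 0.024 for Tgfb2, -0.27 to 0.31 for Tgfb3, in dICB against isotype of -0.19 to 0.035 for Tgfb2, in Dexa 10 mg against isotype of -0.49 to 0.028 for Tgfb3, in Dexa 200 mg against isotype of -0.54 to 0.11 for Tgfb3. Among the other pathway genes, the sign of Itgb1 turned with housekeeping scaling in dICB (0.012) and in all 9 treated samples (0.0036) against isotype, and that of Il11 with background subtracted and limma between doses (0.036). Counts of genes past the threshold moved further. Reported counts were 84 in Dexa 200 mg against isotype, 48 in all 9 treated samples against isotype, 5 for any difference and 0 elsewhere. DESeq2 gave 31 in dICB against isotype, 3 in Dexa 200 mg against dICB, 2 for both doses against dICB, 4 in Dexa 10 mg against isotype and 71 for any difference. Housekeeping scaling gave 45 in dICB against isotype, 166 in Dexa 200 mg against isotype, 83 for all treated and 33 for any difference. Without a filter there were 2 in dICB against isotype and 28 for all treated, and with a mean of at least 50 counts 8 for any difference. The sample code as a covariate left 29 in Dexa 200 mg against isotype and 0 for all treated and for any difference. A fit of only the groups compared gave 180 in Dexa 200 mg against isotype. Background-subtracted limma gave 2 in dICB against isotype and 11 for any difference, and positive control scaling 4 there, 25 for all treated and 17 for any difference. Without both samples that stood apart there were 10 in dICB against isotype, 2 between doses, 170 in Dexa 200 mg against isotype and 47 for any difference.

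Leaving out 1 replicate at a time gave 0 to 45 genes in dICB against isotype, 0 to 1 in Dexa 10 mg against dICB, 0 to 8 in Dexa 200 mg against dICB and 0 to 24 for both doses. It gave 0 to 136 in Dexa 200 mg against isotype, 0 to 62 for all treated and 0 to 44 for any difference. The 84 genes of Dexa 200 mg against isotype became 0 without isotype replicate 3, 9 without isotype replicate 2, 11 without Dexa 200 mg replicate 2 or 3, 50 without its replicate 1 and 136 without Dexa 10 mg replicate 2. The 45 came without dICB replicate 3.

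Replicate numbers are shared by the groups, and the labels do not say whether they pair the samples. Deviations from group means of the 18 same-numbered pairs correlated at -0.39 to 0.29 (median -0.03). Those of 36 others correlated at -0.46 to 0.61 (median 0.02). With 3 samples a group these values cannot exclude a pairing. With the replicate block, 1 gene passed in dICB against isotype, 1 in Dexa 200 mg against dICB, 28 for all treated and 10 for any difference, Lif had an edgeR adjusted p of 0.0566, and no member passed. For Tgfb2, DESeq2 gave no adjusted p in some comparisons. Values of Tgfb2 and Il11 are limited by their counts, which lie near background.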
